A study of Mus musculus with 4 samples.

Results

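The genes described here encode proteins of the complement system and receptors for its fragments: Cfb, C3 and Cfp of the alternative pathway, the C1q chain genes C1qa, C1qb and C1qc, the receptors C3ar1 and C5ar1, and the membrane inhibitor Cd55. They were chosen by gene symbol, and all 9 were among the 26026 genes of the deposited table. Polyadenylated RNA had been sequenced from mouse bone marrow-derived cells, labelled BMDC, grown in RPMI medium with 100 ng/mL Flt3 ligand, a growth factor for dendritic cell progenitors. The 4 groups were Nfkb1-/- (C57/B16) cells at day 5, wild-type (C57/B16) cells at day 5, Nfkb1-/- cells at day 3 and wild-type cells at day 3, with the medium replenished on day 3. Nfkb1 encodes p105 and its processed form p50, a subunit of the transcription factor NF-kB, and the stated purpose was to follow the interplay of p50 with the subunit RelA during this differentiation. Each group was 1 library, so the spread between replicates is unknown and no difference below could be set against it. The labels give neither the animals behind a library nor how the allele was made.

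Complement is a cascade of plasma and cell-surface proteins that tags microbes and debris for uptake. C1q, a bundle of A, B and C chains made mainly by macrophages and related cells, starts the classical pathway. The alternative pathway amplifies itself when factor B (Cfb) joins cleaved C3 to form a convertase that properdin (Cfp) stabilises and decay-accelerating factor (Cd55) takes apart. The small fragments C3a and C5a signal to myeloid cells through the receptors C3ar1 and C5ar1. In mouse macrophages and marrow-derived dendritic cells, Cfb and C3 are known to be made locally and to be inducible by inflammatory stimuli.

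Values are RPKM, which scale reads by transcript length and library total, so that levels can be compared between genes. The library totals recovered from the RPKM steps ran from 15255070 to 16215214 reads, and each of the 9 genes held at least 133 reads in every library. Ratios between 2 libraries carry exact 95% intervals of the reads, which cover counting error only. A size rule of at least 1 on the scale of log2(RPKM + 1), which understates the change of low genes, was applied to every gene that averaged 1 RPKM or more, 11786 in all. The 9 genes all passed that filter. The targeted gene Nfkb1 had 64.7 RPKM in Nfkb1-/- cells and 113.8 RPKM in wild-type cells at day 5, and 56.0 RPKM in Nfkb1-/- cells and 74.8 RPKM in wild-type cells at day 3. It was lower in both knockout libraries but not absent, and a value for the whole gene does not show which transcripts remain. Markers of several cell types were present. The summed level of 26 macrophage and monocyte markers ran from 8553 to 10450 RPKM over the 4 libraries, that of 17 conventional dendritic cell markers from 1734 to 4820 RPKM, and that of 15 neutrophil markers from 3042 to 34680 RPKM. The sums of the other lists stayed lower, at 384.6 to 930.9 RPKM for granulocyte precursors, 339.6 to 508.5 for plasmacytoid dendritic cells, 122.7 to 393.1 for B cells, 6.06 to 35.2 for T and NK cells, 5.72 to 292.7 for red cells, 46.5 to 247.9 for mast cells and basophils, 336.0 to 817.4 for megakaryocytes and platelets, 19.0 to 33.5 for stromal cells and 1.70 to 4.16 for liver cells.

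Among the 9 genes Cfb was far higher and Cd55 lower in Nfkb1-/- cells than in wild-type cells at both days, while the other 7 differed by less than the size rule. On the log2(RPKM + 1) scale the Cfb difference was 3.50 at day 5 and 1.69 at day 3. Cd55 was lower, at -1.30 at day 5 and -0.97 at day 3, the day 3 value falling just short of the size rule. The 3 C1q chain genes lay below 0 at both days, between -0.71 and -0.11. At day 5, 1 of the 9 genes was past the rule upward, where 1.16% of all genes were, and 1 downward, where 3.22% were. At day 3, 1 was past it upward, against 0.976% of all genes, and 0 downward, against 0.882%. The median of the 9 differences was -0.39 at day 5 and -0.11 at day 3, beside medians over all genes of 0.01 and 0.13. With libraries rescaled by median ratio, the day 3 median of all genes became -0.02 and the split over all genes became 70 higher and 156 lower, against 115 and 104 without rescaling. The median of the 9 genes at day 3 became -0.28 and 1 of them, Cd55, was then past the rule downward.

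**Figure D1:**
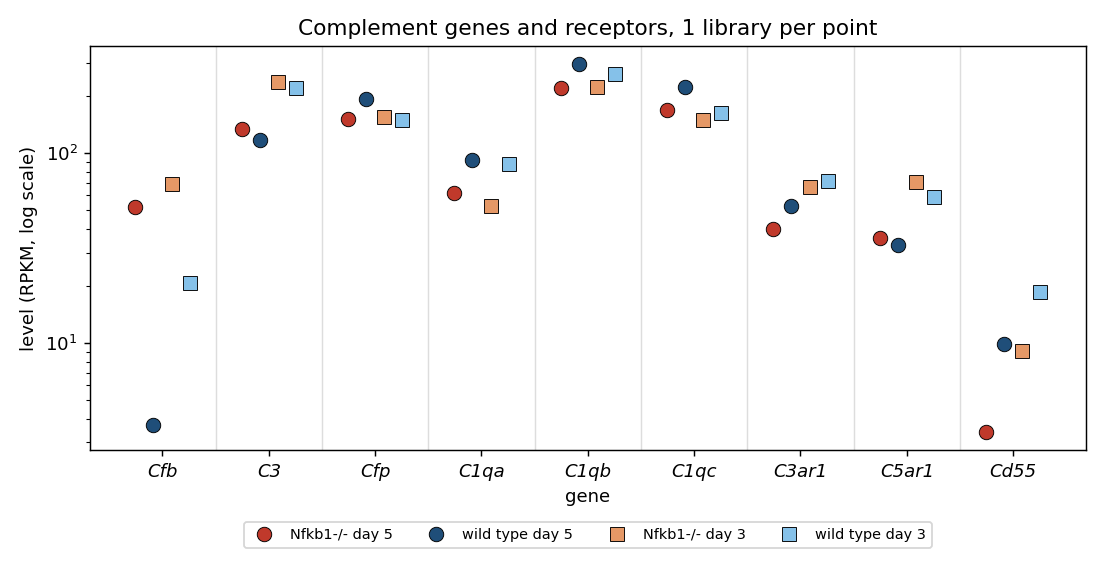
Level of each of the 9 genes in each of the 4 libraries, in RPKM on a log scale, with circles for day 5 and squares for day 3. Cfb at day 5 stands at 3.71 RPKM in wild-type cells, far below its other 3 values, while C3, Cfp and the C1q chain genes stay between 53.1 and 294.3 RPKM in every library.

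Of the alternative pathway components, Cfb (NM_001142706), the serine protease of the convertase, carried the largest genotype difference of the set. It stood at 52.3 RPKM (2208 reads) in Nfkb1-/- cells and 3.71 RPKM (164 reads) in wild-type cells at day 5. At day 3 it stood at 68.9 RPKM (3063 reads) in Nfkb1-/- cells and 20.6 RPKM (864 reads) in wild-type cells. Both knockout libraries were thus above both wild-type libraries. Nfkb1-/- cells held 14.1 times the wild-type level at day 5 (12.0 to 16.6) and 3.33 times at day 3 (3.09 to 3.60). Among the 11786 genes compared, the difference ranked 2 from the top at day 5 and 11 at day 3. In this bulk RNA, a change in the number of cells that make a transcript and a change in the RNA per cell cannot be told apart. Of the 24 measured macrophage and monocyte markers, 3 were past the size rule upward in the knockout at day 5 (Cd14, Ly6c2 and Marco) and 3 downward (Adgre1, Vcam1 and Slc40a1). At day 3, 2 were past it upward (Ly6c2 and Marco) and 0 downward. The liver markers, from the main source of plasma factor B, were low. Only Apoa2 of the 7 in the table passed the filter, with 3.08 RPKM in Nfkb1-/- cells and 2.80 RPKM in wild-type cells at day 5, and 3.71 RPKM in Nfkb1-/- cells and 1.14 RPKM in wild-type cells at day 3, a day 3 difference of 1.14. Alb, their defining marker, stood at 0.599 RPKM in Nfkb1-/- cells and 0.482 RPKM in wild-type cells at day 5, and at 0.0299 RPKM in Nfkb1-/- cells and 0.191 RPKM in wild-type cells at day 3. The part of either list in the Cfb difference was not tested.

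The widening of the Cfb difference between the days lay mostly in the wild-type libraries. Wild-type Cfb at day 5 was 0.180 times its day 3 level (0.151 to 0.212), a difference of -2.20 that ranked 12 from the bottom of all genes. In Nfkb1-/- cells the day 5 level was 0.759 times that of day 3 (0.718 to 0.802). The genotype ratio at day 5 was 4.22 times that at day 3 (3.54 to 5.04), and this shift of 1.81 was past the size rule, as were 1.0% of all genes in that direction. The other 8 genes shifted by between -0.40 and 0.14, so 0 of the 9 were past the rule downward, where 2.63% of all genes were.

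C3 (NM_009778), the central component that both pathways cleave, differed little between genotypes. It had 134.1 RPKM in Nfkb1-/- cells and 117.3 RPKM in wild-type cells at day 5, and 236.2 RPKM in Nfkb1-/- cells and 221.0 RPKM in wild-type cells at day 3. The ratios of Nfkb1-/- to wild type were 1.14 (1.11 to 1.18) at day 5 and 1.07 (1.05 to 1.09) at day 3, and the day 3 difference was negative after the median ratio rescaling. The level of C3 was 2.57 times that of Cfb in Nfkb1-/- cells and 31.6 times in wild-type cells at day 5, and 3.43 times in Nfkb1-/- cells and 10.7 times in wild-type cells at day 3. Relative to C3 in the same library, Cfb was 12.3 times as high in Nfkb1-/- as in wild-type cells at day 5 (10.5 to 14.5) and 3.12 times at day 3 (2.89 to 3.37), a comparison that does not depend on library scaling.

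Cfp (NM_008823), the X-linked gene of properdin, stood at 152.3 RPKM in Nfkb1-/- cells and 193.7 RPKM in wild-type cells at day 5. At day 3 it stood at 155.5 RPKM in Nfkb1-/- cells and 149.5 RPKM in wild-type cells. Nfkb1-/- cells held 0.786 times the wild-type level at day 5 (0.754 to 0.820) and 1.04 times at day 3 (0.995 to 1.09, an interval that includes 1). The day 3 difference changed sign under both rescalings of the libraries. Wild-type cells at day 5 held the highest value of the 4, and the other 3 libraries lay close together.

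**Figure D2:**
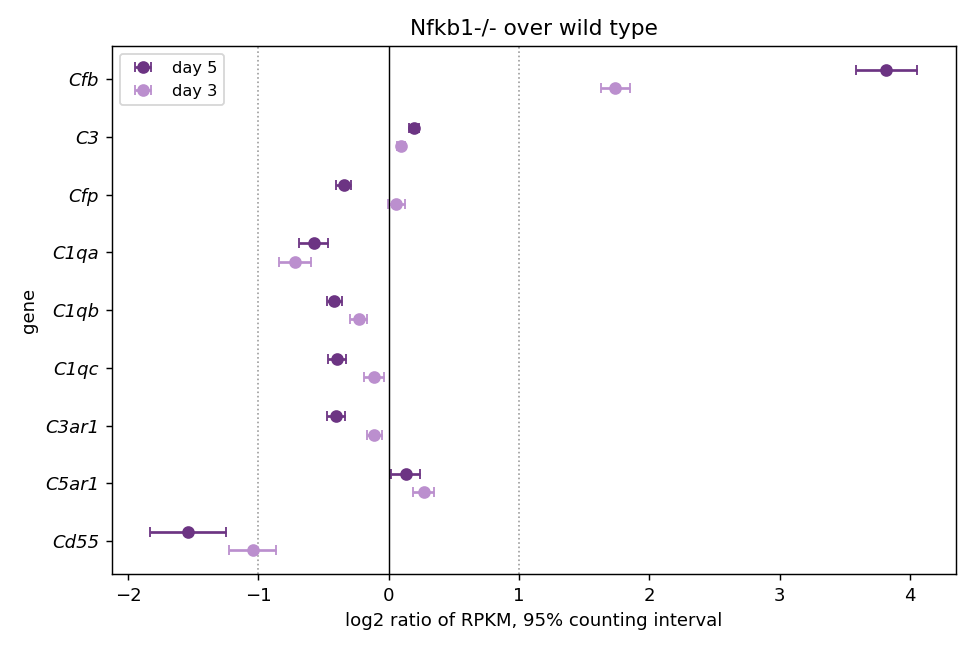
Log2 ratio of RPKM, Nfkb1-/- over wild type, for each gene at day 5 (dark) and day 3 (light), with bars for the 95% counting interval and dotted lines at a ratio of 2 or its inverse. Cfb lies far to the right and Cd55 to the left at both days, and the C1q chain genes and C3ar1 lie left of 0.

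The C1q chains were among the more abundant transcripts of the culture. C1qb (NM_009777) had 220.5 RPKM in Nfkb1-/- cells and 294.3 RPKM in wild-type cells at day 5, and 222.2 RPKM in Nfkb1-/- cells and 261.0 RPKM in wild-type cells at day 3, which placed it between rank 123 and rank 180 of 26026 genes. C1qc (NM_007574) had 169.2 RPKM in Nfkb1-/- cells and 222.7 RPKM in wild-type cells at day 5, and 150.1 RPKM in Nfkb1-/- cells and 162.4 RPKM in wild-type cells at day 3. C1qa (NM_007572) was the lowest of the chains, with 62.1 RPKM in Nfkb1-/- cells and 92.6 RPKM in wild-type cells at day 5, and 53.1 RPKM in Nfkb1-/- cells and 87.3 RPKM in wild-type cells at day 3. In each chain gene the knockout library was the lower at each day. Only for C1qa and C1qb did both knockout libraries lie below both wild-type libraries, since C1qc in Nfkb1-/- cells at day 5 was above wild-type cells at day 3.

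C1qa in Nfkb1-/- cells was 0.670 times its wild-type level at day 5 (0.620 to 0.725) and 0.608 times at day 3 (0.559 to 0.660). For C1qb it was 0.749 (0.718 to 0.781) and 0.852 (0.816 to 0.889) at these days, and for C1qc 0.760 (0.723 to 0.799) and 0.924 (0.875 to 0.976). The intervals leave out 1 in each case, although none of these differences reached the size rule. Summed over the chains, C1q stood at 451.8 RPKM in Nfkb1-/- cells and 609.5 RPKM in wild-type cells at day 5, and at 425.4 RPKM in Nfkb1-/- cells and 510.7 RPKM in wild-type cells at day 3. The sum of the macrophage and monocyte markers did not go the same way. It was 9464 RPKM in Nfkb1-/- cells and 8553 RPKM in wild-type cells at day 5, and 10450 RPKM in Nfkb1-/- cells and 8660 RPKM in wild-type cells at day 3. Of the 24 measured markers of that list 13 were above 0 at day 5 and 14 at day 3 in the knockout comparison. At day 5 Cd14, Ly6c2 and Marco were past the size rule upward and Adgre1, Vcam1 and Slc40a1 downward, and the part of such cells in the C1q difference was not tested.

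The chains did not differ by the same factor. C1qa made up 13.7% of the C1q sum in Nfkb1-/- cells and 15.2% in wild-type cells at day 5, and 12.5% in Nfkb1-/- cells and 17.1% in wild-type cells at day 3. Relative to C1qb in the same library, C1qa in Nfkb1-/- cells was 0.895 times its wild-type value at day 5 (0.819 to 0.978) and 0.714 times at day 3 (0.651 to 0.783). C1qc relative to C1qb was 1.01 times its wild-type value at day 5 (0.951 to 1.08) and 1.08 times at day 3 (1.01 to 1.16). Between the days, C1qc relative to C1qb was higher at day 5 in both genotypes, by 1.14 times in Nfkb1-/- cells (1.06 to 1.22) and 1.22 times in wild-type cells (1.14 to 1.30).

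**Figure D3:**
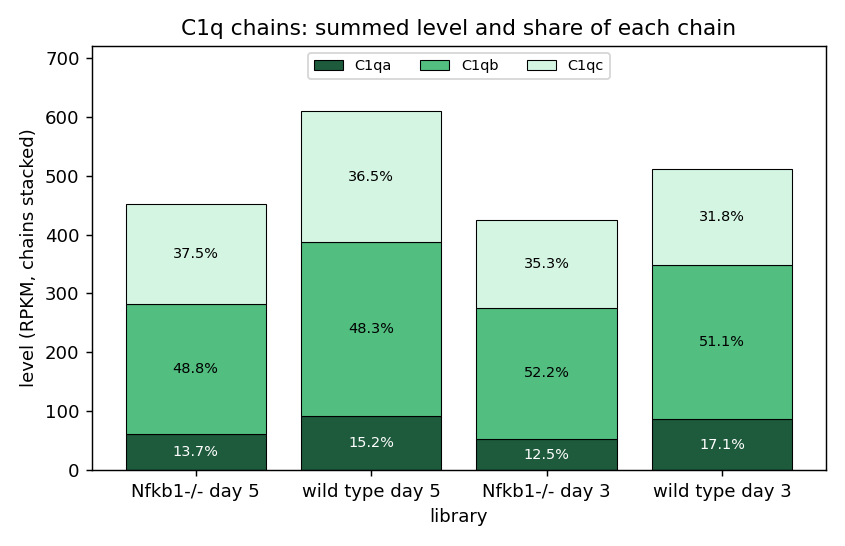
Level of the C1q chain genes in RPKM, stacked, in each of the 4 libraries, with the share of each chain printed in its block. The stack is lower in Nfkb1-/- than in wild-type cells at each day (451.8 against 609.5 RPKM at day 5), and the C1qa block is the smallest in every library.

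Promoter windows were at hand for 7 of the 9 genes (RefSeq, GRCm38.p6, from 250 bases before to 50 bases after the annotated gene start). Those of Cfb and C1qa were not among them. The windows were searched on both strands for the kappa B consensus bound by NF-kB, the C/EBP motif TTGCNNAA, the STAT motif TTCNNNGAA, the interferon-stimulated response element bound by IRF factors, the PU.1 motif AGGAAGT and the TATA box TATAAA. Windows of 4 genes are printed 5′ to 3′, the C1q chains because both were lower in the knockout at both days, and C3 and C5ar1 because their profiles over the libraries were the closest of the set. Capitals mark matches to the first 5 motifs.

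C1qb (chr4:136886151-136886450, minus strand): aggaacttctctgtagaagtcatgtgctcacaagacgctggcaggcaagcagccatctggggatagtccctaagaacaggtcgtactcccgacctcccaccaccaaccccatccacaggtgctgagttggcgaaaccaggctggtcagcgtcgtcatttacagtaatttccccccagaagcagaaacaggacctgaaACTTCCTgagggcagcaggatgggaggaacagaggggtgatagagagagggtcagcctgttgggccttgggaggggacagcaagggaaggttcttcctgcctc
C1qc (chr4:136892865-136893164, minus strand): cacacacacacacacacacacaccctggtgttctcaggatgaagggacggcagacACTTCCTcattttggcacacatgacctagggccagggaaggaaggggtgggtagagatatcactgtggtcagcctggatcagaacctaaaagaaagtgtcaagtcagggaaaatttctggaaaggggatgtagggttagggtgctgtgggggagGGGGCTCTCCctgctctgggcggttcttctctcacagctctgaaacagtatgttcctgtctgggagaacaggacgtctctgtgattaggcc
C3 (chr17:57228087-57228386, minus strand): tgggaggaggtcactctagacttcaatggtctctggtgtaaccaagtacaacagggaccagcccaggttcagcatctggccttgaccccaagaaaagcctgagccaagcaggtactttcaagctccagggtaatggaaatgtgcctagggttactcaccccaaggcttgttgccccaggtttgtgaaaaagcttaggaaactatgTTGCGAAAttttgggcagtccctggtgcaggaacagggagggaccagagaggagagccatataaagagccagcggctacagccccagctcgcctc
C5ar1 (chr7:16259289-16259588, minus strand): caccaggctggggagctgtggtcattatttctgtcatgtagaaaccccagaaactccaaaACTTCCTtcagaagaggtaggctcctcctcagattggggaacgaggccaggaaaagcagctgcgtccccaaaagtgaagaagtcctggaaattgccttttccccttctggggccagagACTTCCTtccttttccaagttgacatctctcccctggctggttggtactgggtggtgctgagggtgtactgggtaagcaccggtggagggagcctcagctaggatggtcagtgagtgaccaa

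C1qb and C1qc each held a PU.1 match on the opposite strand, starting 53 and 195 bases before the gene start, and C5ar1 held 2. That motif stands in 9.35% of the 32851 promoter windows. The kappa B consensus was matched in C1qc alone of the 7, where its 10 bases begin 41 bases before the start, and it stands in 4.51% of windows. C3 held a C/EBP match 45 bases before its start, present in 10.8% of windows, and TATAAA 15 bases after it. The windows of Cd55 and Cfp held none of the 6 motifs, and that of C3ar1 only a TATA box. These matches describe letters in short windows and say nothing of binding in these cells.

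The receptors for the C3 and C5 fragments were at similar levels and differed little between genotypes. C3ar1 (NM_009779) had 40.0 RPKM in Nfkb1-/- cells and 53.0 RPKM in wild-type cells at day 5, and 66.5 RPKM in Nfkb1-/- cells and 71.8 RPKM in wild-type cells at day 3. C5ar1 (NM_007577) had 35.8 RPKM in Nfkb1-/- cells and 32.7 RPKM in wild-type cells at day 5, and 70.8 RPKM in Nfkb1-/- cells and 58.8 RPKM in wild-type cells at day 3. The direction between genotypes was opposite. C3ar1 was lower in Nfkb1-/- cells, with ratios of 0.755 (0.718 to 0.794) at day 5 and 0.926 (0.889 to 0.964) at day 3, and C5ar1 was higher, with ratios of 1.09 (1.01 to 1.18) and 1.20 (1.14 to 1.27) at these days. C3ar1 relative to C5ar1 was 0.690 times its wild-type value in Nfkb1-/- cells at day 5 (0.631 to 0.756) and 0.769 times at day 3 (0.718 to 0.824).

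Cd55 (NM_010016), the membrane protein that speeds the decay of C3 convertases, was the least abundant of the set in 3 of the 4 libraries. It stood at 3.41 RPKM (133 reads) in Nfkb1-/- cells and 9.89 RPKM (404 reads) in wild-type cells at day 5, and at 9.05 RPKM (372 reads) in Nfkb1-/- cells and 18.7 RPKM (722 reads) in wild-type cells at day 3. Wild-type cells at day 3 were highest and Nfkb1-/- cells at day 5 lowest, while the other 2 libraries lay close together. Nfkb1-/- cells held 0.344 times the wild-type level at day 5 (0.281 to 0.420) and 0.485 times at day 3 (0.427 to 0.550). With a pseudocount of 0.1 RPKM or under either rescaling the day 3 difference passed the size rule, and with a pseudocount of 5 RPKM the day 5 difference no longer did (-0.82). The antisense transcript Cd55os overlaps the gene and had 27 reads in Nfkb1-/- cells and 71 reads in wild-type cells at day 5, and 49 reads in Nfkb1-/- cells and 120 reads in wild-type cells at day 3, so without known strand the assignment of shared reads is uncertain. The paralog Cd55b held 2 reads or fewer in every library. Neutrophil markers, which were also lower in the knockout, summed to 3042 RPKM in Nfkb1-/- cells and 14030 RPKM in wild-type cells at day 5, and to 24410 RPKM in Nfkb1-/- cells and 34680 RPKM in wild-type cells at day 3. Conventional dendritic cell markers, class II genes included, summed to 1888 RPKM in Nfkb1-/- cells and 4820 RPKM in wild-type cells at day 5, and to 1734 RPKM in Nfkb1-/- cells and 3111 RPKM in wild-type cells at day 3. At day 5, 14 of the 15 neutrophil and 13 of the 17 dendritic cell markers were past the size rule downward, and at day 3 0 of either list, although all lay below 0. Of the 7 measured T and NK cell markers 4 were past it downward at day 5 and 5 at day 3, with medians of -1.005 and -1.41, and of the 4 red cell markers 1 and 4 were, with medians of -0.66 and -2.18. At day 5, 6 of the 7 mast cell and basophil markers and 5 of the 8 megakaryocyte and platelet markers were past it downward. So were 3 of the 8 B cell, 3 of the 9 plasmacytoid dendritic cell and 2 of the 6 granulocyte precursor markers. At day 3 that held for 1 B cell marker and for 0 of the others. The 24 macrophage and monocyte markers had 3 past it upward and 3 downward at day 5. Over all genes 3.22% were past it downward at day 5 and 0.882% at day 3. The part of any of these lists in the Cd55 difference was not tested.

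Between the days, C3, C3ar1, C5ar1 and Cd55 were, like Cfb, lower at day 5 than at day 3 in both genotypes. In wild-type cells C1qc at day 5 was 1.37 times its day 3 level (1.30 to 1.44), Cfp 1.30 times (1.24 to 1.35) and C1qb 1.13 times (1.08 to 1.17), and in Nfkb1-/- cells C1qa and C1qc were 1.17 times (1.07 to 1.28) and 1.13 times (1.07 to 1.19) theirs. The intervals of C1qa in wild-type cells and of Cfp and C1qb in Nfkb1-/- cells included 1. On the log2(RPKM + 1) scale the wild-type C1qb difference was 0.17, beside a median over all genes of 0.16. It fell as low as 0.0021 over the 6 alternatives of scale and filter, where C1qc and Cfp in wild-type cells stayed at 0.28 and 0.20 or more. C5ar1 at day 5 was 0.505 times its day 3 level in Nfkb1-/- cells (0.474 to 0.539) and 0.556 times in wild-type cells (0.519 to 0.596). C3 was 0.568 times its day 3 level in Nfkb1-/- cells (0.554 to 0.581) and 0.531 times in wild-type cells (0.518 to 0.544). Cd55 was 0.376 times its day 3 level in Nfkb1-/- cells (0.306 to 0.460) and 0.530 times in wild-type cells (0.468 to 0.599). C3ar1 was 0.602 times its day 3 level in Nfkb1-/- cells (0.573 to 0.631) and 0.737 times in wild-type cells (0.706 to 0.770). The integrin genes Itgam and Itgb2, which together encode complement receptor 3 of myeloid cells, were lower at day 5 as well, with differences of -0.60 and -0.41 in Nfkb1-/- cells and of -0.64 and -0.26 in wild-type cells. All 15 neutrophil markers were lower at day 5 in each genotype, past the size rule in every case, with medians of -2.98 in Nfkb1-/- cells and -1.37 in wild-type cells. The 8 measured B cell markers were lower as well in each genotype, 7 past the rule in Nfkb1-/- cells and 4 in wild-type cells. So were the 6 granulocyte precursor markers (4 and 3 past it), the 4 red cell markers (3 and 4) and the 7 T and NK cell markers (1 and 2). Over all genes 3.01% and 2.05% were past it downward. Of the 17 conventional dendritic cell markers 13 and 16 lay above 0, and of the 8 megakaryocyte and platelet markers 6 and 8. Of the 24 measured macrophage and monocyte markers 10 lay above 0 and 14 below in Nfkb1-/- cells, with a median of -0.14. In wild-type cells 11 lay above 0 and 13 below, with a median of -0.03. Of the 7 measured mast cell and basophil markers 6 were past the rule downward in Nfkb1-/- cells. In wild-type cells 0 of them were, and 5 lay above 0. The part of any of these cell types in the lower receptor and C3 levels was not tested.

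By the size rule 0 of the 9 genes were higher and 1 lower at day 5 in Nfkb1-/- cells (Cd55), where 0.594% and 3.01% of all genes were. In wild-type cells 0 were higher and 1 lower (Cfb), where 1.8% and 2.05% were. The medians of the 9 differences were -0.39 in Nfkb1-/- cells and -0.43 in wild-type cells, beside 0.04 and 0.16 over all genes. In wild-type cells the median ratio rescaling brought the median of all genes to 0.01 and put C3 and Cd55 past the rule as well, with the split over all genes moving to 145 higher and 346 lower from 212 and 242.

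**Figure D4:**
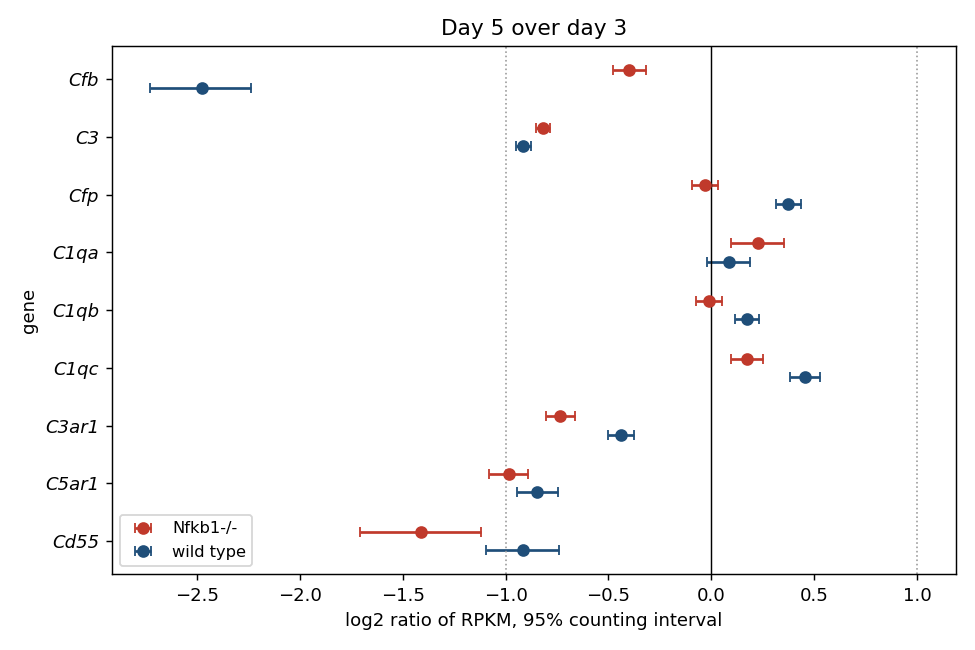
Log2 ratio of RPKM, day 5 over day 3, for each gene in Nfkb1-/- cells (red) and wild-type cells (blue), with 95% counting intervals and dotted lines at a ratio of 2 or its inverse. C3, C3ar1, C5ar1 and Cd55 lie left of 0 in both genotypes, and Cfb lies farther left in wild-type than in Nfkb1-/- cells.

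Over the libraries the profiles of C3 and C5ar1 were the most alike within the set, at a distance of 0.13 between their centred log2(RPKM + 1) values over 4 libraries, followed by those of Cfp and C1qc at 0.19. Outside the set, the gene nearest to Cfb was Mir6972 (distance 1.00), which lies within Cfb and so is not a separate observation. It was followed by Acod1, which makes itaconate, and the receptor gene Gpr84, at 1.10 and 1.11. Acod1 had 56.5 RPKM in Nfkb1-/- cells and 11.7 RPKM in wild-type cells at day 5, and 72.2 RPKM in Nfkb1-/- cells and 27.0 RPKM in wild-type cells at day 3. Nearest to Cd55 were Gm30963 (0.11), Gabbr1 (0.19), a subunit of the GABA type B receptor, and Myo1d (0.20), an unconventional myosin. Gabbr1 had 1.65 RPKM in Nfkb1-/- cells and 5.44 RPKM in wild-type cells at day 5, and 5.91 RPKM in Nfkb1-/- cells and 10.5 RPKM in wild-type cells at day 3. With 4 libraries such distances order genes and carry no test.

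Most of the remaining complement system was barely expressed. Of 58 further complement genes listed, 54 were in the table and 18 averaged 1 RPKM or more, while 14 stood at the 1 read floor in all libraries, among them the terminal component genes C7, C8b and C9. At day 5, 0 of the 18 were higher and 4 lower in Nfkb1-/- cells by the size rule, where 1.16% and 3.22% of all genes were, with a median of -0.09 beside 0.01 over all genes. At day 3, 1 was higher and 1 lower, where 0.976% and 0.882% of all genes were, with a median of -0.03 beside 0.13. The ficolin gene Fcnb, a lectin of neutrophil precursors in mouse, differed by -2.00 at day 5 and -0.16 at day 3. The second C5a receptor gene C5ar2 differed by -1.03 and -0.61 at these days, with 1.46 RPKM in Nfkb1-/- cells and 4.04 RPKM in wild-type cells at day 5. The integrin Itgax, a chain of complement receptor 4 and also a dendritic cell marker, differed by -1.42 and -0.68, and the B cell complement receptor Cr2 by -1.14 and -1.49. The macrophage ficolin Fcna was the gene past the rule upward, by 1.35 at day 3, on 63 reads in Nfkb1-/- cells and 11 reads in wild-type cells.

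Genes of inhibitors and of C1q-binding proteins outside the set gave smaller genotype differences. Cr1l, the mouse membrane inhibitor also called Crry, differed by -0.10 at day 5 and -0.02 at day 3. C1qbp, a mitochondrial protein named for C1q binding, was higher by 0.70 and 0.78 at these days. Calr, the chaperone calreticulin that also binds C1q, was the most abundant of the list at 590.8 RPKM in Nfkb1-/- cells and 422.4 RPKM in wild-type cells at day 5. Lrp1, its partner receptor in uptake, had opposite signs at the days, 0.74 at day 5 and -0.40 at day 3. Clu, the inhibitor clusterin, did so the other way, at -0.82 at day 5 and 0.40 at day 3.

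Below the filter, C2 and C4b followed the direction of Cfb, and they were picked out after their values were seen. C2, the classical pathway counterpart of Cfb and its direct neighbour on chromosome 17, had 50 reads in Nfkb1-/- cells and 1 read in wild-type cells at day 5, and 94 reads in Nfkb1-/- cells and 10 reads in wild-type cells at day 3. The day 3 ratio was 8.84 (4.60 to 19.0). C4b, which encodes the C4 component that pairs with C2, had 43 reads in Nfkb1-/- cells and 1 read in wild-type cells at day 5, and 98 reads in Nfkb1-/- cells and 37 reads in wild-type cells at day 3, a day 3 ratio of 2.49 (1.69 to 3.74). C4a is a near-identical copy of C4b and held 8 reads or fewer, so the split between the copies is uncertain. A value of 1 read may stand for 0 in this table, and no ratio is given for day 5. Nelfe, the neighbour of Cfb on its other side, had 12.5 RPKM in Nfkb1-/- cells and 13.2 RPKM in wild-type cells at day 5, a ratio of 0.952 (0.814 to 1.11). At day 3 it had 10.00 RPKM in Nfkb1-/- cells and 8.35 RPKM in wild-type cells, a ratio of 1.20 (0.994 to 1.44), and both intervals included 1.

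**Figure D5:**
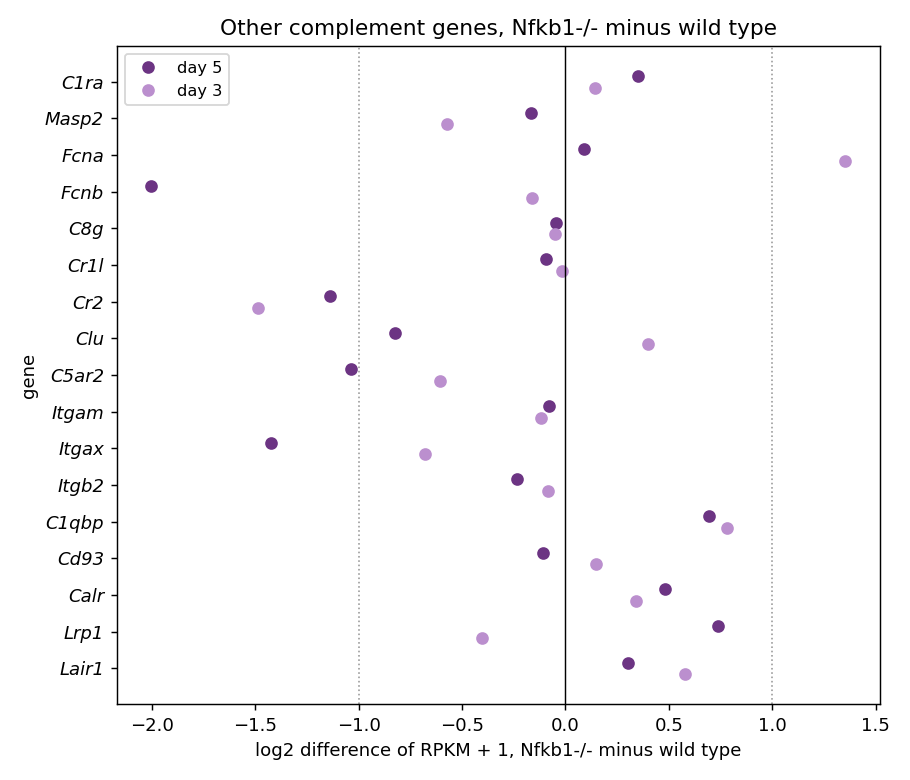
Difference in log2(RPKM + 1), Nfkb1-/- minus wild type, at day 5 (dark) and day 3 (light) for 17 of the 18 further complement genes averaging 1 RPKM or more, with dotted lines at the size rule. Fcnb, Cr2, C5ar2 and Itgax lie past the left line at day 5, and Fcna past the right line at day 3.

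An additive limma fit of genotype and day over all 11786 genes takes the days as repeats of each other and leaves 1 residual degree of freedom per gene. For genotype it called 0 genes at an adjusted p under 0.05, with 2278 at an unadjusted p under 0.05. In this limma fit the genotype term of Cfb was 2.60 ± 0.40 (SE) with an adjusted p of 0.0819, higher in both knockout libraries, and that of Cd55 was -1.14 ± 0.16 with an adjusted p of 0.0819, lower in both. C1qa followed at -0.64 ± 0.15, with an adjusted p of 0.133 from limma. For day the fit called 136 genes, 1.15% of all (0.136% higher and 1.02% lower at day 5), and 0 of the 9, although Cd55, C5ar1 and C3 came near the threshold with adjusted p values of 0.0578, 0.0646 and 0.0656 from limma. Over the 7 limma alternatives the adjusted p for day ran from 0.0371 to 0.319 for Cd55, from 0.0388 to 0.293 for C5ar1 and from 0.0443 to 0.293 for C3, so these calls depend on the filter, the scaling and the variance model.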

How the data were processed

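The submitters' processing notes name HISAT2, SAMtools and the mm9 build. The counter, annotation and strand setting were not given in the sources used here. RPKM values were made and deposited by the authors, 1 column per library per the file headers. Library totals and whole reads (tolerance 0.003) were recovered from the RPKM steps for all 26026 genes, with GENCODE transcript lengths where needed. Each gene stands at 1 read or more, and the table does not settle whether 1 read was added to all. Differences are of log2(RPKM + 1) without rescaling, for genes averaging 1 RPKM or more. A ratio has an exact Clopper-Pearson interval, and those of ratios between genes or between days use the normal approximation on the log scale, all at 95%. Intervals cover counting error only, and the labels mention no molecular identifiers. The fit used limma 3.58.1 in R 4.3.3 with Benjamini-Hochberg adjustment. It was also run on simulated libraries with no day effect and the same genotype change at both days. That run does not cover a genotype difference that shifts between the days. RefSeq tables (GRCm38.p6) gave neighbouring genes and promoter sequences.

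The genes described, the gene lists and the rules were chosen with earlier results of these data known. The named genes are the 9, Nfkb1, listed complement genes past the filter, and for each gene past the size rule between 2 libraries the 3 nearest profiles among genes averaging 20 reads or more. C2, C4b, C4a, Cd55b and Nelfe, genes at the floor and transcripts overlapping a gene were named after their values were seen. Lists for plasmacytoid dendritic, B, T and NK, red, mast, platelet, stromal and endothelial, and liver cells and granulocyte precursors are given as ranges of summed RPKM. For some of them, counts past the size rule or above 0 were added beside a difference of the 9 genes. For liver cells, values of Apoa2 and Alb were added, and for stromal and endothelial cells the range of Pecam1. Of the listed complement genes past the filter, 1 enters the counts and is not reported here by name. The alternatives tried were pseudocounts of 0.1 and 5 RPKM, a filter at 5 RPKM or none, libraries rescaled by median ratio or to one sum, and limma with an intensity trend.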

Additional observations from a re-analysis of the deposited data

Results flagged for a closer look

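Cfp and C1qb had differences of opposite sign under the same contrast, and neither difference between contrasts was tested, since each group is 1 library. Cfp was at -0.34 in Nfkb1-/- against wild-type cells at day 5 and at 0.0564 at day 3. For day 5 against day 3, Cfp was at -0.0297 in Nfkb1-/- cells and 0.37 in wild-type cells, and C1qb was at -0.0114 in Nfkb1-/- cells and 0.17 in wild-type cells. In each pair the smaller value changed sign under the rescaling to the same sum of RPKM. The wild-type C1qb value stood beside a median over all genes of 0.16 and fell as low as 0.0021 under the alternatives of scale and filter.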

How the results depend on the processing

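Each group is 1 library, so there were no replicates to pair across groups. The limma fit has day as a term, which sets the genotypes against each other within each day. With 1 library per group no replicate was left out. Cfb stayed past the size rule upward in the knockout at both days under all 6 alternatives of scale and filter. The numbers of genes past the rule moved more.

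A pseudocount of 0.1 RPKM gave 225 genes higher and 648 lower in the knockout at day 5, 228 and 221 at day 3 (1 of the 9 lower), 152 higher at day 5 than at day 3 in Nfkb1-/- cells, 418 higher and 386 lower between the days in wild-type cells, and 207 and 610 for the shift. A pseudocount of 5 RPKM gave 54 and 106 in the knockout at day 5 (0 of the 9 lower), 27 and 20 at day 3, 9 and 151 between the days in Nfkb1-/- cells (0 of the 9 lower), 58 and 78 in wild-type cells, and 30 and 84 for the shift. A mean of 5 RPKM or more, which tests fewer genes, left 90 and 228 at day 5, 70 and 40 at day 3, 28 higher between the days in Nfkb1-/- cells, 106 and 154 in wild-type cells, and 39 and 170 for the shift.

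With libraries rescaled by median ratio, 1 of the 9 was lower in the knockout at day 3 and their median was -0.28. Of all genes, 70 were then past the rule upward and 156 downward, with a median of -0.02. Between the days in wild-type cells 3 of the 9 were lower, with a median of -0.60. Of all genes, 145 were past the rule upward and 346 downward there, with a median of 0.01. The median shift of the 9 was -0.0368, beside -0.0063 over all genes. With one sum of RPKM, 1 of the 9 was lower in the knockout at day 3 and their median was -0.20. The split of all genes past the rule was 81 upward and 125 downward at that day, with a median of 0.05. The median of the 9 between the days in Nfkb1-/- cells was -0.30, beside 0.11 over all genes. Their median shift was -0.0628, beside -0.0289 over all genes.

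For genotype, limma called 20 genes with the filter at 5 RPKM and 19 with an intensity trend. For day it called 4 with a pseudocount of 0.1 RPKM, 3 with 5 RPKM, 0 with no filter, 286 by median ratio and 0 with one sum. Of the 9 genes, the limma day term called 3 with the filter at 5 RPKM, where it called 185 of 8059 genes, 3 by median ratio, where it called 286 of 11786, and 2 with the trend, where it called 204 of 11786. The limma day term of C1qb changed sign by median ratio, to -0.0163. Over the 7 limma alternatives the adjusted p of the genotype term ran from 0.0602 to 0.444 for Cfb and from 0.0574 to 0.281 for Cd55. The causes of these changes were not tested. Depth limits the genes near the floor of 1 read, C2 and C4b among them.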
